A study of Mus musculus with 6 samples.

Results

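The 9 genes described here encode the proteins that carry retinoids, bind retinoic acid inside the cell, receive it in the nucleus and limit its amount. They were taken from the deposited count table by gene symbol, and all 9 listed members were found among its 55401 gene rows. RNA was measured in V6.5 cells, a hybrid mouse embryonic stem cell line. One group of 3 libraries was wild type (WT). The other group of 3 libraries was labelled Cdh1-/-, a knockout of both copies of the gene for the adhesion protein E-cadherin. The labels name no treatment for either group, and how the knockout was made and whether it is 1 clone are not given in the sources used here. Libraries A, B and C of a genotype are not said to come from separate cultures, so p-values measure only the spread between these libraries.

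Retinol travels in plasma bound to RBP4 and can enter cells through the receptor STRA6. Inside the cell it is oxidised to retinaldehyde and then to retinoic acid, while DHRS3 turns retinaldehyde back into retinol and CYP26A1 breaks retinoic acid down. CRABP1 and CRABP2 bind retinoic acid in the cytoplasm, and the receptors RAR alpha, beta and gamma (Rara, Rarb, Rarg) bind it on DNA together with RXR partners. In embryonic stem cells added retinoic acid is a classical signal to leave pluripotency, and Rarb, Cyp26a1, Dhrs3 and Stra6 are textbook examples of genes that it induces.

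Retinoic acid receptors are known to bind direct repeats of a 6-base core, of which the form AGGTCA, the form AGTTCA, the form GGGTCA and the form GGTTCA were searched on both strands, alone and as repeats spaced by 1, 2 or 5 bases (DR1, DR2, DR5). Each RefSeq window (GRCm38.p6) held 250 bases before and 50 bases after a transcript start. Windows were found for 8 of the 9 members, 18 windows in all, and Crabp2 had none. A direct repeat was found in 2 of them, those of Rarb and Cyp26a1, both of the DR5 kind. Over all genes, 0.588% of 32851 windows held a repeat of any of the 3 kinds, and 0.0974% held a DR5. They are shown because they are the only member windows with such a repeat, with every single core in capitals.

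Rarb, chr14:16575427-16575726, minus strand: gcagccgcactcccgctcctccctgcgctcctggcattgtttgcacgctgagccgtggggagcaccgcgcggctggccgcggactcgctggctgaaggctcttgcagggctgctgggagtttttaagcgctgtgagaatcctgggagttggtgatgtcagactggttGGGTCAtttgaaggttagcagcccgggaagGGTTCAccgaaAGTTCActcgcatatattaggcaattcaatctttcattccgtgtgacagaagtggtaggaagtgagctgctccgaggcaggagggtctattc

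Cyp26a1, chr19:37697558-37697857, plus strand: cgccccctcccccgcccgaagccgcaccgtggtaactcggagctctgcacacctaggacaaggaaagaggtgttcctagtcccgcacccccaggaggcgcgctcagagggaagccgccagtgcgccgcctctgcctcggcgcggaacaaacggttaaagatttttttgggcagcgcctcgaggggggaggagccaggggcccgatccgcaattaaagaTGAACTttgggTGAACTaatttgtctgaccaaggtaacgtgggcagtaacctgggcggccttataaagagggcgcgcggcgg

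In Rarb the repeat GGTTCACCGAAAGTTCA ran from position -53 to -37 relative to the start, and a further single core lay at -83 to -78. In Cyp26a1 the repeat lay on the opposite strand of the window, from -32 to -16, where it reads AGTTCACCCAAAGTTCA. Single cores were found in 7 of the 18 windows and in 43.7% of all windows. A match describes the letters only and does not show that a receptor was bound in these cells.

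Total counts per library ranged from 18020719 to 23381942. Cdh1 itself was checked first and was counted at 559 ± 19.1 CPM (TMM-scaled CPM, a count divided by the library's effective size) in WT and at 173 ± 9.05 CPM in the knockout libraries (SD, n = 3 each), with a log2 fold change of -1.70 (adjusted p 2.9e-08, edgeR's quasi-likelihood test with Benjamini-Hochberg adjustment, the source of each edgeR adjusted p given here). Cdh1 RNA in the knockout was thus 30.9% of the WT level, and E-cadherin protein was not measured here. The stem cell label was examined with 10 pluripotency markers. Their summed level was 4057 to 4471 CPM in WT and 4497 to 5560 CPM in the knockout. Log2 fold changes were positive for 9 of the 10. Tfcp2l1, Klf4 and Fgf4 were called higher (edgeR adjusted p under 0.05) and 0 were called lower. Fibroblast markers summed to 46.3 to 75.0 CPM in WT and 35.5 to 50.3 CPM in the knockout. Of 7 tested fibroblast markers 2, Acta2 and Col1a1, were called lower and 0 higher. S100a4 was at 0 in every library, and exons of Gm42674 on the same strand cover 60.64% of its exon bases. Over all tested genes 7.6% were called higher and 5.71% lower.

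The A libraries of both genotypes stood apart in transcripts made by liver, among them the retinol carrier partner Ttr. A list of 24 such genes, chosen after the counts had been seen, summed to 96.4 CPM in WT A and 84.1 CPM in knockout A, against 4.94 to 7.73 CPM in the other 4 libraries. All 24 genes were higher in both A libraries than in any other library. Albumin (Alb) had 238 counts in WT A and 162 in knockout A, and between 0 and 2 counts elsewhere. Results were therefore also computed without both A libraries, an alternative chosen after the data were seen.

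Among the members, 1 of 9 passed an adjusted p of 0.05, Crabp2, which was lower in the knockout. Over all 17325 tested genes 13.3% passed, 7.6% as higher and 5.71% as lower, so the share of called members is close to that of all genes. All 9 members had enough counts to be tested. Their median log2 fold change was 0.0048, against -0.0071 over all tested genes. In 4 of the 9, Crabp2, Stra6, Cyp26a1 and Dhrs3, the knockout libraries did not overlap the WT libraries, a separation seen in 30.7% of all tested genes.

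**Figure D1:**
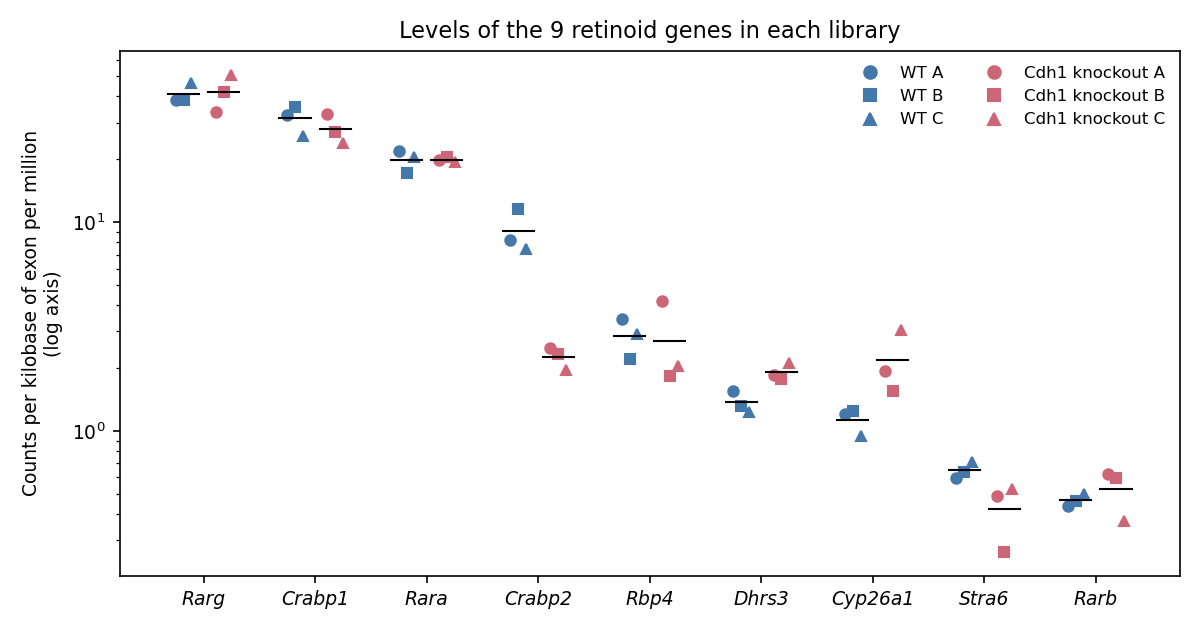
Level of each member in CPM per kilobase of exon (log axis) in the 6 libraries, with black lines at group means. Crabp2 is the member whose knockout points (1.95 to 2.49) lie farthest below its WT points (7.41 to 11.5).

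Scaled to exon length, so that genes can be compared, the members spanned a wide range of levels in WT. Rarg was highest at 41.1 ± 4.57 CPM per kilobase (SD, n = 3), followed by Crabp1 at 31.4 ± 4.95 and Rara at 19.8 ± 2.43. Crabp2 came next at 9.05 ± 2.17, then Rbp4 at 2.86 ± 0.613, Dhrs3 at 1.37 ± 0.169 and Cyp26a1 at 1.13 ± 0.159. Stra6 at 0.649 ± 0.0612 and Rarb at 0.467 ± 0.0321 were lowest. In this order the ranges of Dhrs3 and Cyp26a1 overlapped, and those of the other neighbours were separate. In the knockout the first 3 places were the same, while Rbp4, Crabp2, Cyp26a1 and Dhrs3 lay close together between 1.91 and 2.69, each overlapping its neighbour.

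The carrier and the receptor for plasma retinol come first along the path. Rbp4 (chromosome 19, 38116629 to 38125248, minus strand, GRCm38) encodes the plasma retinol carrier. It was counted at 4.23, 2.73 and 3.60 CPM in WT A, B and C and at 5.14, 2.27 and 2.52 CPM in knockout A, B and C. The highest value of each genotype was in library A, the library with the liver transcripts, and the groups overlapped. The log2 fold change of Rbp4 was -0.10 (95% interval -0.81 to 0.61, edgeR adjusted p 0.891). Without both A libraries it was -0.40 (edgeR adjusted p 0.560). The part of the liver transcripts in the level of Rbp4 was not tested.

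Stra6 (chromosome 9, 58129088 to 58153996, plus strand) encodes the membrane receptor that takes up retinol from RBP4. Its counts were low, 48, 46 and 52 in WT and 32, 22 and 38 in the knockout, or 2.16, 2.32 and 2.60 CPM against 1.77, 0.961 and 1.92 CPM. Every knockout library was below every WT library, and the log2 fold change of -0.61 (interval -1.37 to 0.14) had an edgeR adjusted p of 0.296. Without knockout B the log2 fold change of Stra6 was -0.34 (edgeR adjusted p 0.640). A decrease to 0.386 of the WT level and a slight increase are both within that interval.

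**Figure D2:**
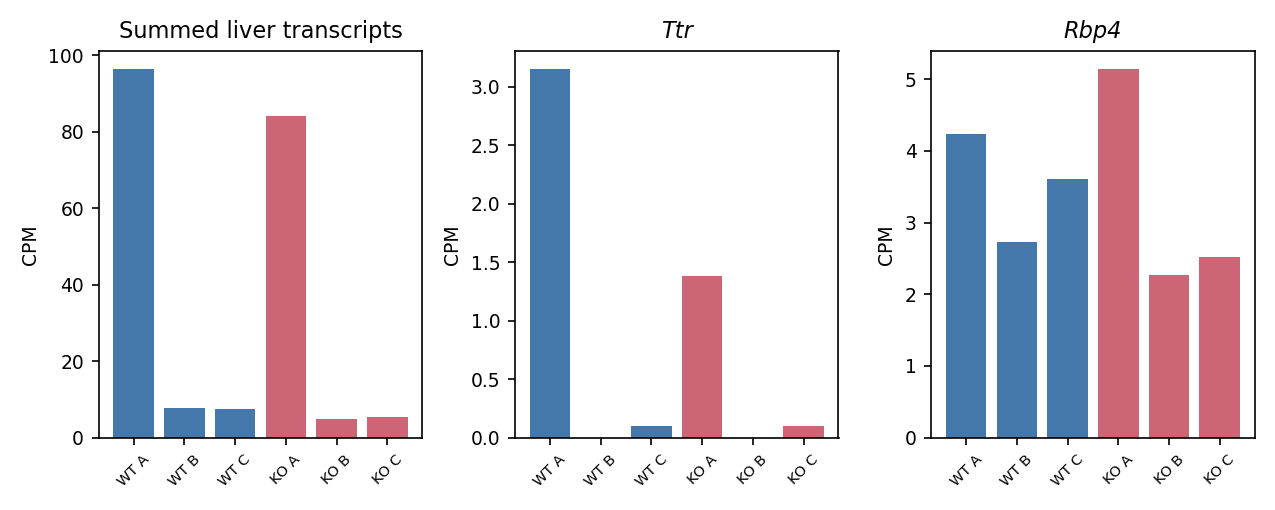
CPM of the 24 summed liver transcripts, of Ttr and of Rbp4 in each library (blue bars WT, red bars Cdh1 knockout; each panel has its own axis from 0). The A libraries hold 96.4 and 84.1 CPM of the summed list, and the highest Rbp4 value of each genotype is also in A.

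The intracellular binding proteins differed from each other. Crabp2 (ENSMUSG00000004885.5, chromosome 3, 87948666 to 87953376, plus strand, 4 exon blocks) encodes the binding protein known to carry retinoic acid towards the nuclear receptors. It was counted at 7.65, 10.7 and 6.90 CPM in WT A, B and C and at 2.32, 2.18 and 1.82 CPM in the knockout, so the highest knockout library lay well below the lowest WT library. Raw counts were 170, 212 and 138 against 42, 50 and 36. Crabp2 fell by 1.996 on the log2 scale (standard error 0.25, 95% interval -2.53 to -1.46, edgeR adjusted p 0.00010), and 25.1% of the WT level was left. Without both A libraries the log2 fold change of Crabp2 was -2.13 (edgeR adjusted p 0.00019).

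Crabp1 (ENSMUSG00000032291.8, chromosome 9, 54764748 to 54773110, plus strand) encodes the paralogous protein, which also binds retinoic acid in the cytoplasm. Its level was 26.2, 28.5 and 20.8 CPM in WT and 26.4, 21.8 and 19.1 CPM in the knockout, and the groups overlapped. The log2 fold change of Crabp1 was -0.17 (interval -0.49 to 0.15, edgeR adjusted p 0.524), so the interval does not reach the change seen for Crabp2. The difference between both genes was examined within each library. Per exon length, Crabp2 stood at 25.1%, 32.3% and 28.6% of Crabp1 in WT A, B and C and at 7.58%, 8.65% and 8.18% in the knockout. The log2 ratio, with 0.5 CPM per kilobase added to each level, was -1.75 ± 0.171 in WT and -3.36 ± 0.107 in the knockout (SD, n = 3 each). Its difference of -1.60 had an exact two-sided permutation p of 0.10, the smallest that 3 libraries against 3 allow, and 0.30 after Benjamini-Hochberg adjustment over the 6 such measures computed.

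**Figure D3:**
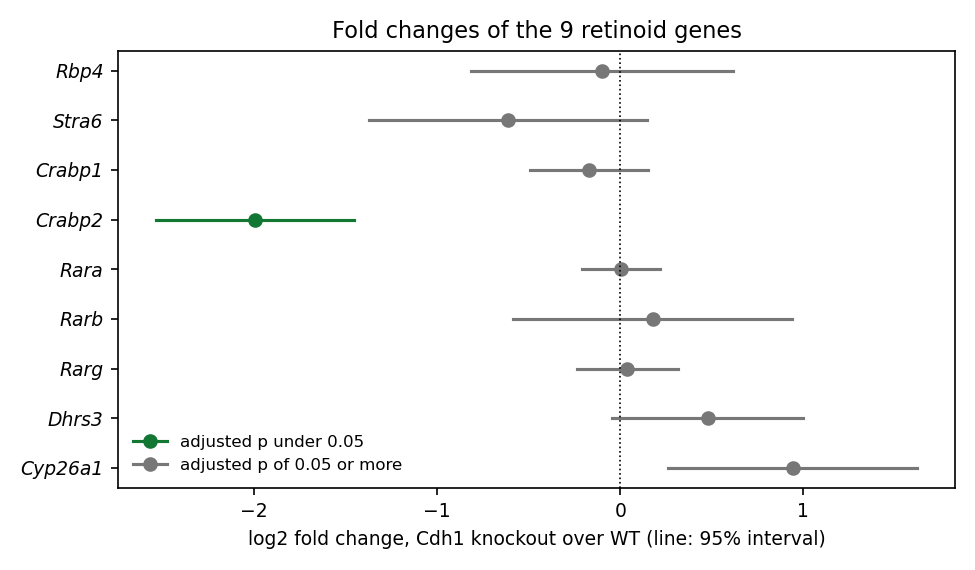
log2 fold change of each member, knockout over WT, with its 95% interval; green marks an adjusted p under 0.05. The interval of Crabp2 runs from -2.53 to -1.46, and the intervals of the other members except Cyp26a1 include 0.

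In bulk RNA, fewer cells with a transcript and less of it per cell cannot be told apart. The libraries of the genotypes also differed in markers of extraembryonic endoderm, a cell type that can arise in stem cell cultures. Of 18 such markers 16 were tested, and 14 of them were called higher and 0 lower. Log2 fold changes were positive for 15 of the 16 and negative for 1. The summed level of all 18 was 753 to 956 CPM in WT and 1777 to 3106 CPM in the knockout. Those called higher were Col4a2, Col4a1, Lama1, Sox7, Lamb1, Gata4, Sox17, Pdgfra, Gata6, Sparc, Cubn, Amn, Foxa2 and Dab2. Sox7 and Gata4 lie on chromosome 14, whose median was 0.54 to 0.55 higher on the log2 scale in the knockout libraries. Sox17 lies on chromosome 1, whose median was 0.29 to 0.33 lower. Hnf4a and Apoa1 were tested and not called. Afp and Ttr were untested, and Afp was at 0 in at least 3 libraries. Apoa1 and Ttr are also on the list of liver transcripts that were high in the A libraries. Neural markers summed to 186 to 234 CPM in WT and 126 to 179 CPM in the knockout, with 3 of 8 tested genes called lower and 1 higher. Mesoderm markers summed to 19.7 to 30.7 CPM in WT and 33.3 to 45.3 CPM in the knockout. Of 8 tested mesoderm markers 1, Pdgfra, was called higher and 0 lower. Over all tested genes 7.6% were called higher and 5.71% lower. The part of these markers in the results for the retinoid genes was not tested.

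For comparison by pattern, the genes whose log2 CPM followed Crabp2 most closely over the 6 libraries were looked up among the 12847 genes averaging 50 counts or more per library. They were Kif14, a mitotic kinesin gene (Pearson r = 0.998), Liph, a phospholipase gene (r = 0.995), and Cacul1 (r = 0.993). The likeness is one of shape across the same 6 libraries and does not reflect size. Kif14 lies on chromosome 1, whose median was 0.29 to 0.33 lower on the log2 scale in the knockout libraries. Liph had a log2 fold change of -1.58, Kif14 of -0.56 and Cacul1 of -0.10, the last with an edgeR adjusted p of 0.516.

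The receptors showed no called difference. Rarg (chromosome 15, 102234938 to 102257517, minus strand) encodes RAR gamma and was counted at 130, 131 and 157 CPM in WT and at 114, 143 and 173 CPM in the knockout. Its knockout libraries lay on both sides of the WT range, and the log2 fold change was 0.04 (interval -0.24 to 0.31, edgeR adjusted p 0.890). Rara (chromosome 11, 98927818 to 98974942, plus strand) encodes RAR alpha and was counted at 93.8, 73.5 and 87.5 CPM in WT and at 84.6, 87.7 and 83.3 CPM in the knockout. The log2 fold change of Rara was 0.0048 (interval -0.21 to 0.22, edgeR adjusted p 0.986). As ratios of knockout to WT, the intervals ran from 0.848 to 1.24 for Rarg and from 0.865 to 1.16 for Rara.

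Rarb (chromosome 14, 16430839 to 16575827, minus strand) encodes RAR beta, whose DR5 repeat is printed above. It had between 25 and 46 counts per library, or 1.49, 1.57 and 1.70 CPM in WT and 2.10, 2.01 and 1.26 CPM in the knockout, where A and B lay above and C below the WT libraries. Its log2 fold change was 0.18 (interval -0.58 to 0.94, edgeR adjusted p 0.808). The median of chromosome 14 genes, relative to the other autosomes, was 0.54 to 0.55 higher on the log2 scale in the knockout libraries than in WT. With that median removed the log2 fold change of Rarb was -0.36 (edgeR adjusted p 0.588), so its direction depends on this step. Exons of genes on the opposite strand, Top2b and Gm48162, cover 59.55% of its exon bases, and how strand was set in counting is not given in the sources used here.

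Shares of the receptor pool were close in both genotypes. Per exon length, Rarg made up 63.2%, 68.6% and 68.9% of the 3 receptor transcripts in WT A, B and C and 62.3%, 66.6% and 72.0% in the knockout. Rara made up 32.3 ± 3.25% in WT and 32.2 ± 4.54% in the knockout, and Rarb 0.763 ± 0.0525% and 0.870 ± 0.316% (SD, n = 3 each). The differences were 0.045 percentage points for Rarg, -0.15 for Rara and 0.11 for Rarb, with exact permutation p-values of 1, 1 and 0.7. These differences had no stable sign: without knockout A they were 2.39, -2.35 and -0.03 percentage points, without knockout C -2.46, 2.18 and 0.28, and without WT A -1.81, 1.73 and 0.087. The summed level of the 3 receptors was 61.4 ± 5.60 CPM per kilobase in WT and 62.6 ± 8.36 in the knockout (exact permutation p = 0.8).

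**Figure D4:**
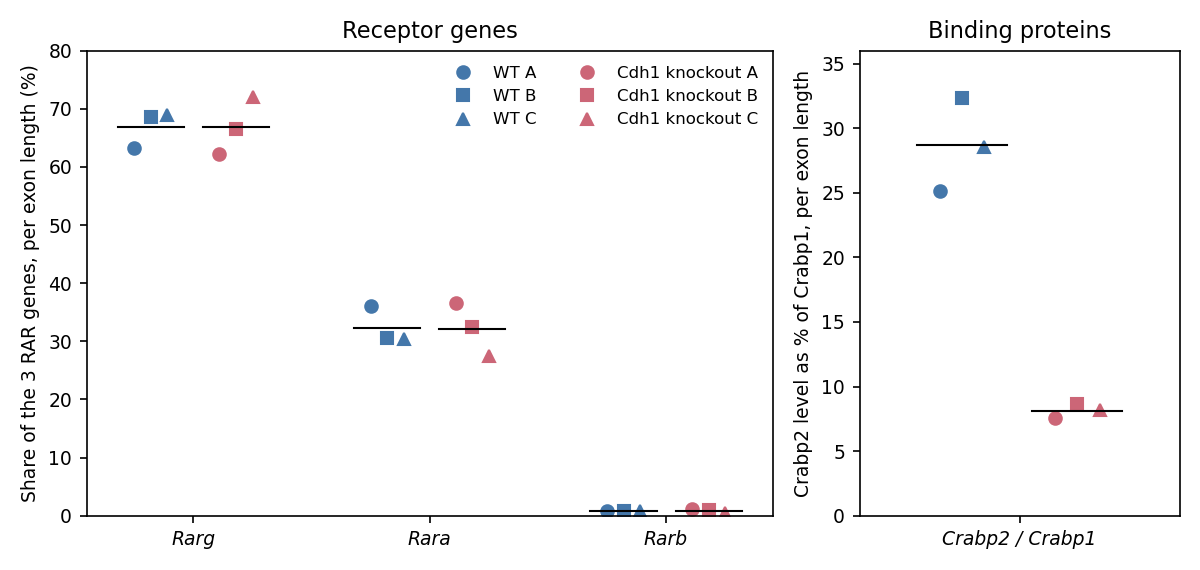
Left, share of Rarg, Rara and Rarb in the 3 receptor transcripts per exon length (%). Right, Crabp2 level as a percentage of Crabp1 per exon length, with black lines at group means; knockout points lie at 7.58% to 8.65% and WT points at 25.1% to 32.3%.

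Cyp26a1 and Dhrs3 are the members that lower the amount of retinoic acid, and neither was called. Cyp26a1 (ENSMUSG00000024987.6, chromosome 19, 37697798 to 37701536, plus strand) encodes the hydroxylase that degrades retinoic acid, and its promoter repeat is printed above. It was counted at 2.16, 2.22 and 1.70 CPM in WT and at 3.48, 2.80 and 5.45 CPM in the knockout, with knockout C highest and no overlap between groups. Raw counts were 48, 44 and 34 against 63, 64 and 108. The log2 fold change of Cyp26a1 was 0.94 (standard error 0.32, 95% interval 0.26 to 1.62), with an unadjusted p of 0.00995 and an edgeR adjusted p of 0.0655, so it was not called. Leaving out knockout A or knockout B brought the adjusted p to 0.0485 and 0.0496, DESeq2 gave 0.0456 and no filter on low counts 0.0349. The edgeR adjusted p was 0.141 without WT A, 0.133 without WT B and 0.171 without WT C. It was 0.0980 without both A libraries, and limma-voom gave 0.0937. Leaving out knockout C gave a log2 fold change of 0.63 (edgeR adjusted p 0.312).

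Dhrs3 (chromosome 4, 144892827 to 144928209, plus strand) encodes the reductase that returns retinaldehyde to retinol. It was counted at 3.78, 3.18 and 3.00 CPM in WT and at 4.48, 4.28 and 5.15 CPM in the knockout. Every knockout library was above every WT library, and the log2 fold change of 0.48 (interval -0.04 to 0.998) had an edgeR adjusted p of 0.228. Cyp26a1, Dhrs3, Rarb and Stra6 are all known to respond to retinoic acid, and their log2 fold changes here were 0.94, 0.48, 0.18 and -0.61, none of them called. These 4 are examples and not a full list of responsive members. Whether the called member, Crabp2 (log2 fold change -1.996), responds to retinoic acid was not examined here.

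Other genes of the pathway were taken from 4 lists of 80 genes in all, of which 60 had enough counts to be tested. Of these, 9 were called higher and 7 lower in the knockout, 26.7% against 13.3% of all tested genes. The number of called pathway genes was 10 without WT A. In that fit 1374 of all 17795 tested genes were called, against 2307 of 17325 with every library.

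Among genes of uptake, carriage and storage, 1 of 8 tested genes was called lower and 1 higher. Retsat, a retinol saturase gene, was called at 0.45 on the log2 scale (edgeR adjusted p 0.0498), but its adjusted p lay between 0.0505 and 0.163 when any 1 library was left out. Lrat encodes the enzyme that makes retinyl esters for storage and was named after its values were seen. Its counts were low, 24, 20 and 16 in WT and 6, 2 and 8 in the knockout. The log2 fold change of Lrat was -1.82 (95% interval -3.06 to -0.59, edgeR adjusted p 0.0513). Lrat was called with upper-quartile scaling (0.0481), library totals (0.0494) and limma-voom (0.0418), and its adjusted p lay between 0.0642 and 0.199 when any 1 library was left out. Untested members of this list included Ttr, with 70 counts in WT A, 25 in knockout A and at most 2 elsewhere.

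Among genes of retinoid oxidation and breakdown, 2 of 12 tested genes were called higher and 1 lower. Cyp26b1, a sister enzyme of Cyp26a1, was counted at 0.990, 1.42 and 0.550 CPM in WT and at 2.16, 2.58 and 2.93 CPM in the knockout. The log2 fold change of Cyp26b1 was 1.37 (edgeR adjusted p 0.0312), and its adjusted p was 0.0976 without WT A, 0.105 without WT C, 0.0901 without knockout B, 0.117 without knockout C and 0.0605 without both A libraries. Dhrs4, a reductase gene on chromosome 14, rose by 0.83 on the log2 scale (edgeR adjusted p 0.0098). With the chromosome median removed Dhrs4 stood at 0.29 (edgeR adjusted p 0.409), and its adjusted p was 0.0555 without WT A, 0.0664 without WT B and 0.0651 without knockout B. Cyp1b1, a cytochrome that can oxidise retinol, averaged 3.04 ± 1.30 CPM in WT and fell to 0.779 ± 0.335 CPM (log2 fold change -1.95, edgeR adjusted p 0.0073), and its adjusted p was 0.0696 without WT A and 0.0561 without both A libraries. Aldh1a2, the main retinaldehyde dehydrogenase of the embryo, averaged 1.86 ± 0.737 CPM in WT, 1.41 ± 0.0895 CPM in the knockout and was not called (named after its values were seen). Adh1 was untested, with 45 counts in WT A, 24 in knockout A and at most 2 elsewhere.

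All 18 listed nuclear partners and cofactors were tested, with 2 called higher and 1 lower. Rxrg, which encodes the RXR gamma partner, had 54, 26 and 20 counts in WT and 3, 8 and 2 counts in the knockout. The log2 fold change of Rxrg was -2.88 (standard error 0.58, edgeR adjusted p 0.0039), and -2.57 (edgeR adjusted p 0.0115) with the lower median of its chromosome 1 removed. Its adjusted p was 0.0509 without both A libraries. The more abundant partners Rxra and Rxrb were not called, Rxra at 26.4 ± 3.04 (WT) and 22.5 ± 2.06 CPM (knockout) and Rxrb at 60.9 ± 4.50 and 60.5 ± 1.73 CPM; both were named after their values were seen. The coactivator gene Ncoa3 rose from 295 ± 10.8 to 394 ± 56.0 CPM (log2 fold change 0.42, edgeR adjusted p 0.0124), with an adjusted p of 0.0719 without WT A, 0.0594 without WT B, 0.0650 without knockout B and 0.0654 without knockout C. The corepressor gene Ncor1 rose from 302 ± 10.2 to 391 ± 54.8 CPM (log2 fold change 0.37, edgeR adjusted p 0.0217), with an adjusted p of 0.109 without WT A, 0.0739 without WT B, 0.0516 without WT C, 0.0953 without knockout B and 0.101 without knockout C.

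Genes that retinoic acid is known to induce in stem cells were called in both directions, 4 higher and 4 lower of 22 tested, and their median log2 fold change was -0.38. Meis2, a homeobox gene, had 213, 220 and 192 counts in WT and fell to 2, 30 and 40 counts in the knockout (log2 fold change -3.11, edgeR adjusted p 0.00033). Of 7 tested Hox genes all 7 had negative values and 2 were called, among them Hoxb1 (log2 fold change -2.09, edgeR adjusted p 0.0019), which was named after its values were seen.

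In the other direction, Tgm2, a transglutaminase gene, rose from 18.5, 19.8 and 17.1 CPM in WT to 61.1, 53.2 and 52.4 CPM in knockout A, B and C, by 1.59 on the log2 scale (standard error 0.11, edgeR adjusted p 1.7e-06). Genes of the opposite strand cover 22.55% of the exon bases of Tgm2. Gata6, an endoderm transcription factor gene, averaged 4.43 ± 1.26 CPM in WT and rose to 11.9 ± 2.09 CPM (log2 fold change 1.43, edgeR adjusted p 0.00072). Pdgfra, a growth factor receptor gene, averaged 6.73 ± 2.04 CPM and rose to 18.9 ± 5.22 CPM (log2 fold change 1.49, edgeR adjusted p 0.00062). Gata6 and Pdgfra are also on the list of extraembryonic endoderm markers, of which 14 of 16 tested genes were called higher in these libraries.

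**Figure D5:**
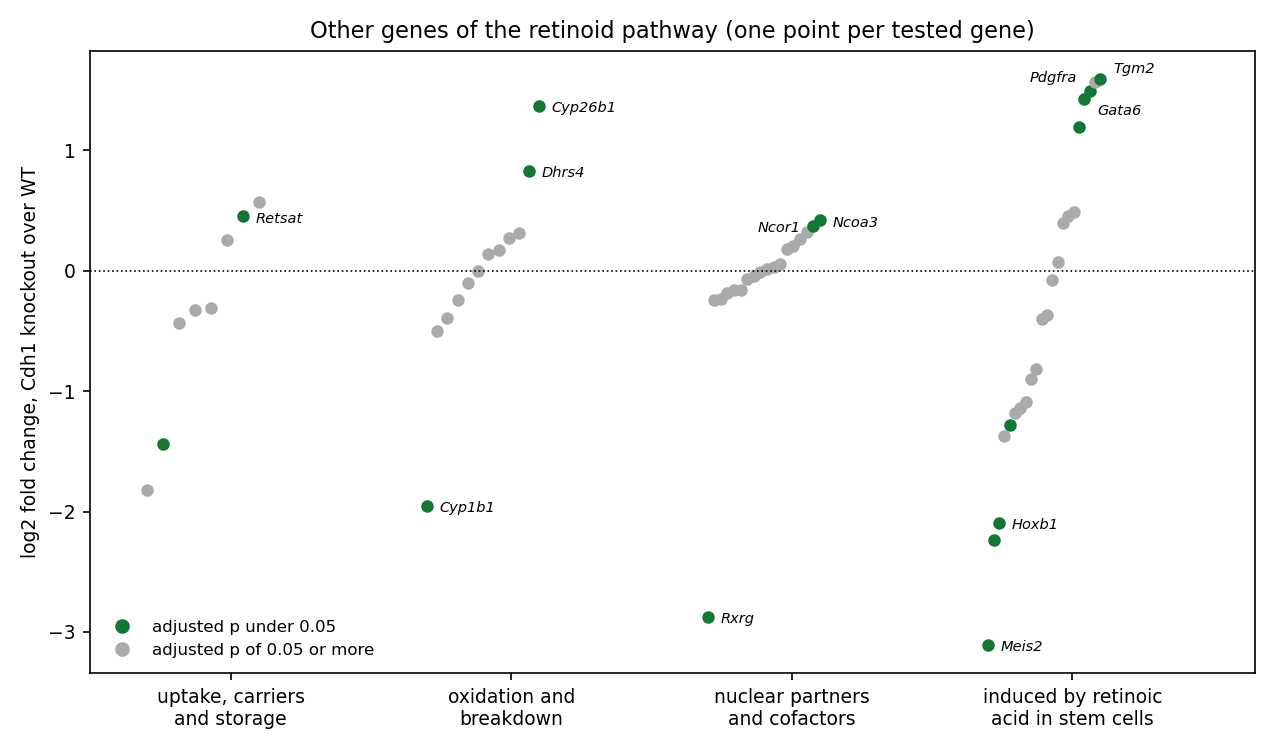
log2 fold change, knockout over WT, of the 60 tested pathway genes in 4 lists, 1 point per gene; green points passed an adjusted p of 0.05, and those described in the text are named. Called genes lie on both sides of 0 in every list.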

How the data were processed

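RNA from 6 libraries of V6.5 mouse embryonic stem cells, 3 WT and 3 Cdh1-/-, was prepared with a directional kit, per the labels' protocols. The authors deposited raw counts per gene, not normalized, with each gene's exon length. The submitters' processing notes name cutadapt 2.10, STAR 2.7.5b, featureCounts 2.0.1 and GRCm38. The strand setting, and whether both mates of a pair were counted, are not given in the sources used here, and between 78.1% and 83.1% of counts from 1 to 10 were even. All 6 count columns were matched to a sample, and 55141 of 55401 rows received a symbol. The exons of each member equalled those of GENCODE M21 basic.

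The fit used edgeR 4.0.16 under R 4.3.3 (filterByExpr, TMM, glmQLFit and glmQLFTest with genotype as the only term, Benjamini-Hochberg adjustment over 17325 genes, threshold 0.05). Standard errors and 95% intervals were obtained from the F statistic. Expression is given as CPM (TMM-scaled) or, between genes, as CPM per kilobase of exon. The members and lists were chosen with earlier results of these data known. Named were all members, Cdh1, up to 6 called genes of each pathway list by smallest adjusted p, and the 3 genes most like the member of smallest adjusted p; others are marked. Some genes that met this rule are not reported here. Alternatives were other scalings and filters, DESeq2 1.42.0, limma-voom (limma 3.58.1), counts divided by 2, chromosome medians removed, the replicate letter as a block, and each library left out. The script was tested on simulated data. PCR copies are not independent molecules.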

Additional observations from a re-analysis of the deposited data

How the results depend on the processing

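Crabp2 stayed called and negative in all 17 alternatives, with log2 fold changes from -2.11 to -1.79 when single libraries were left out. Stra6 and Crabp1 stayed negative and Dhrs3 and Cyp26a1 positive in all 17. The number of called members was 2 without a filter on low counts and with DESeq2, and 1 to 2 over the fits without 1 library. The added gene was Cyp26a1, with log2 fold changes of 0.97 (no filter), 0.94 (DESeq2), 1.02 (without knockout A) and 1.15 (without knockout B). Cyp26a1 was called in these 4 of the 17 alternatives only. Over all fits without 1 library, called or not, Cyp26a1 ranged from 0.63 to 1.15. Rara lay near 0, at -0.033 with upper-quartile scaling, -0.031 with library totals, -0.0073 with a filter of 1 CPM in 3 libraries, -0.0044 with counts divided by 2, and -0.089 to 0.083 without 1 library. Leaving out 1 library gave -0.11 to 0.18 for Rarg and -0.56 to 0.13 for Rbp4, and removal of the medians of chromosomes 1 and 14 gave -0.36 for Rarb. Over all genes 1242 passed an adjusted p of 0.01, against 2307 at 0.05, and 1374 (without WT A) to 2784 (without knockout A) without 1 library. Of pathway genes 10 to 21 were called without 1 library. With a pseudocount of 0.1 the difference of the Crabp2 to Crabp1 log2 ratio was -1.77, and it ranged from -1.69 to -1.52 without 1 library.

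The labels do not say what the replicate letters share, and not every letter's libraries deviated together. Deviations from group means correlated between genotypes at 0.14 for A, -0.03 for B and 0.23 for C. Pairs of unlike letters ranged from -0.25 (WT C with knockout A) to 0.12 (WT B with knockout A). The liver transcripts were shared by both A libraries. With the letter as a replicate block 1 member was called, Crabp2 at -1.99, and 2686 of all genes. Near 2 CPM, the intervals of Stra6 and Rarb include both decreases and increases. With counts divided by 2 the standard error of Stra6 was 0.34, against 0.35 with the counts as deposited.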
